A study of Arabidopsis thaliana with 17 samples.

Results

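The response of Arabidopsis thaliana to salicylic acid (SA) was compared between plants with and without a brca2a mutation. The measure was the difference between the SA effects of a triple mutant and of the double mutant it derives from. For each probe set, the change after SA in the brca2a triple (SA minus water) was taken minus the change after SA in the double, on the log2(intensity + 16) scale. A negative value means that SA raised the probe set less, or lowered it more, in the brca2a triple, and a positive value the reverse. The difference was measured for 22746 probe sets, on 12 of the 17 ATH1 arrays of the series, and 442 of them were called. A probe set was called when limma's Benjamini-Hochberg adjusted p over all 22746 was below 0.05.

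All plants were 3 weeks old, grown in soil and labelled as seedlings, and carried the npr1 and sni1 mutations in both genotypes, the controls included. The double had the genotype npr1 sni1 and the brca2a triple npr1 sni1 brca2a. Each genotype was sampled 16 hours after 0.5 mM SA or after water, in 3 replicates per group, which the labels trace to independent experiments. No wild type and no single mutant entered, so each SA effect was measured in npr1 mutant plants, and the sources used here do not name the mutant alleles. The 5 arrays of the ssn2 triple were not analysed here.

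SA is a hormone that plants make during infection, and its accumulation switches on a large set of defence genes. NPR1 is the co-activator through which most of these genes respond, acting with TGA transcription factors. SNI1 is a nuclear protein that holds defence genes down, so that the sni1 mutation gives an npr1 mutant back part of its SA response. BRCA2A is 1 of the Arabidopsis homologues of the animal BRCA2 protein, which acts in the repair of DNA breaks by homologous recombination. The question behind the comparison was how far the SA response of npr1 sni1 plants depends on BRCA2A.

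Named genes are those whose probe set is paired with 1 gene in the platform annotation. This held for 13333 loci, 172 of them called lower and 39 called higher. The remaining 179 probe sets called lower and 52 called higher are unnamed here, and their differences reached -3.95 and 1.73. BRCA2A, NPR1 and SNI1 had no such probe set, so the mutated genes were not analysed here. The leaf gene RCA read 13.71 to 13.85 over the 12 arrays, with a difference of 0.03 (limma adjusted p = 0.92). Of 5 measured root genes, 4 read between 4.48 and 5.0, and PYK10 between 8.89 and 9.55. None of the 5 was called, and markers of flower and seed were not measured by a one-gene probe set. Within a group, arrays correlated at 0.994 or above across probe sets, except that water replicate 2 of the double reached at most 0.981 with its group. The counts are therefore given with this array (12 arrays) and without it (11 arrays).

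Most of the called difference lay in genes that SA raised in the double and did not raise to the same level in the brca2a triple. With 12 arrays, 351 probe sets were lower (1.54% of those tested) and 91 higher (0.4%), 442 or 1.94% in all. The lower group had a median difference of -1.02, and 178 of its members differed by at least 2-fold. The higher group was smaller in number and in size, with a median of 0.62 and 17 members at 2-fold or more. Over all probe sets the median difference was -0.01. At an unadjusted p below 0.05 there were 2845 probe sets. In whole plants, fewer cells of a type and less RNA per cell cannot be told apart.

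CML38, STZ and ORA47 were among the 20 lowest named genes, and the related CML37 and WRKY22 differed less. CML38, a calmodulin-like calcium sensor (AT1G76650), read 5.26, 5.16 and 5.33 in water and 7.98, 8.08 and 8.36 after SA in the double. In the brca2a triple it read 5.91, 5.16 and 5.98 in water and 5.39, 5.17 and 5.38 after SA. The SA arrays of the double stood above all 9 others, and the SA arrays of the triple overlapped both water groups. SA raised CML38 7.41-fold in the double, and the difference in SA effect was -3.26 ± 0.27 (SE, limma adjusted p = 0.00012). CML37, its close relative, moved less. It read 4.43, 4.44 and 4.52 in water and 4.96, 5.06 and 5.03 after SA in the double, against 4.54, 4.49 and 4.54 in water and 4.46, 4.50 and 4.49 after SA in the triple, a difference of -0.60 (limma adjusted p = 0.00047). All of these CML37 levels lie near the low end of the scale, where adding 16 to the intensity compresses changes.

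STZ, a C2H2 zinc finger protein that represses transcription under salt, cold and oxidative stress, read 7.27, 6.88 and 7.21 in water and 9.38, 9.27 and 9.29 after SA in the double. In the triple it read 6.90, 6.32 and 7.03 in water and 6.07, 6.31 and 6.30 after SA, so that all 3 SA arrays of the triple lay below every other array. The difference was -2.71 ± 0.24 (limma adjusted p = 0.00018). WRKY53, a W-box binding factor of senescence and defence, read 5.69, 5.68 and 5.66 in water and 7.55, 7.75 and 7.52 after SA in the double. In the triple it stayed between 5.21 and 5.53 in all 6 arrays, and its difference was -1.92 ± 0.12 (limma adjusted p = 3.1e-05). WRKY22, a factor of the immune response to bacterial flagellin, went from 5.94, 6.06 and 6.04 to 7.16, 7.04 and 7.04 in the double and from 5.95, 5.84 and 6.04 to 6.24, 6.10 and 6.02 in the triple. Its difference was -0.89 (limma adjusted p = 0.00085), and only the double's SA arrays stood apart. ORA47, an AP2/ERF factor that activates jasmonate synthesis genes, read 5.65, 5.51 and 5.73 in water and 7.28, 7.59 and 7.21 after SA in the double. The triple gave 6.0, 5.38 and 6.06 in water and 5.42, 5.39 and 5.41 after SA, and the difference was -2.14 ± 0.23 (limma adjusted p = 6e-04).

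Ubiquitin ligases formed another group. PUB23 and PUB22 are U-box ligases that together restrain the response to microbial patterns. PUB23 read 6.77, 6.27 and 6.95 in water and 8.72, 8.68 and 8.78 after SA in the double, and 6.74, 6.56 and 6.81 in water and 6.54, 6.25 and 6.30 after SA in the triple. The difference was -2.40 ± 0.21 (limma adjusted p = 0.00019), and the double's SA arrays stood above all others. PUB22 read 5.65, 5.92 and 5.70 in water and 6.28, 6.54 and 6.25 after SA in the double, and 5.73, 5.72 and 5.62 in water and 5.57, 5.63 and 5.43 after SA in the triple. Its difference was -0.75 ± 0.13 (limma adjusted p = 0.013), again with the SA arrays of the double above the rest. RING1, a membrane-bound RING ligase linked to programmed cell death, read 8.61, 8.84 and 8.47 in water and 9.78, 9.91 and 9.77 after SA in the double. In the triple its 6 arrays lay between 8.33 and 8.74, and the difference was -1.33 ± 0.15 (limma adjusted p = 0.00081).

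GRX480 is a glutaredoxin that binds TGA factors and is a known SA target. It read 5.62, 5.63 and 5.96 in water and 8.07, 8.15 and 8.38 after SA in the double, and 6.52, 5.84 and 6.42 in water and 6.28, 6.30 and 6.53 after SA in the triple. The double's SA arrays were the highest, and the triple's water and SA arrays overlapped. SA raised GRX480 5.51-fold in the double, and the difference was -2.35 ± 0.24 (limma adjusted p = 0.00051). XTH18 and XTH19 are enzymes that cut and rejoin xyloglucan in the cell wall, and their genes lie next to each other. XTH18 read 6.43, 5.86 and 6.50 in water and 8.71, 8.64 and 8.70 after SA in the double, and 6.57, 6.06 and 6.38 in water and 6.61, 6.37 and 6.50 after SA in the triple, a difference of -2.26 ± 0.23 (limma adjusted p = 0.00051). XTH19 read 6.08, 5.78 and 6.07 in water and 6.74, 6.42 and 6.73 after SA in the double, and 6.41, 6.20 and 6.12 in water and 5.92, 6.02 and 5.93 after SA in the triple, a difference of -0.94 (limma adjusted p = 0.01). For both genes the 3 SA arrays of the double lay above the other 9.

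**Figure D1:**
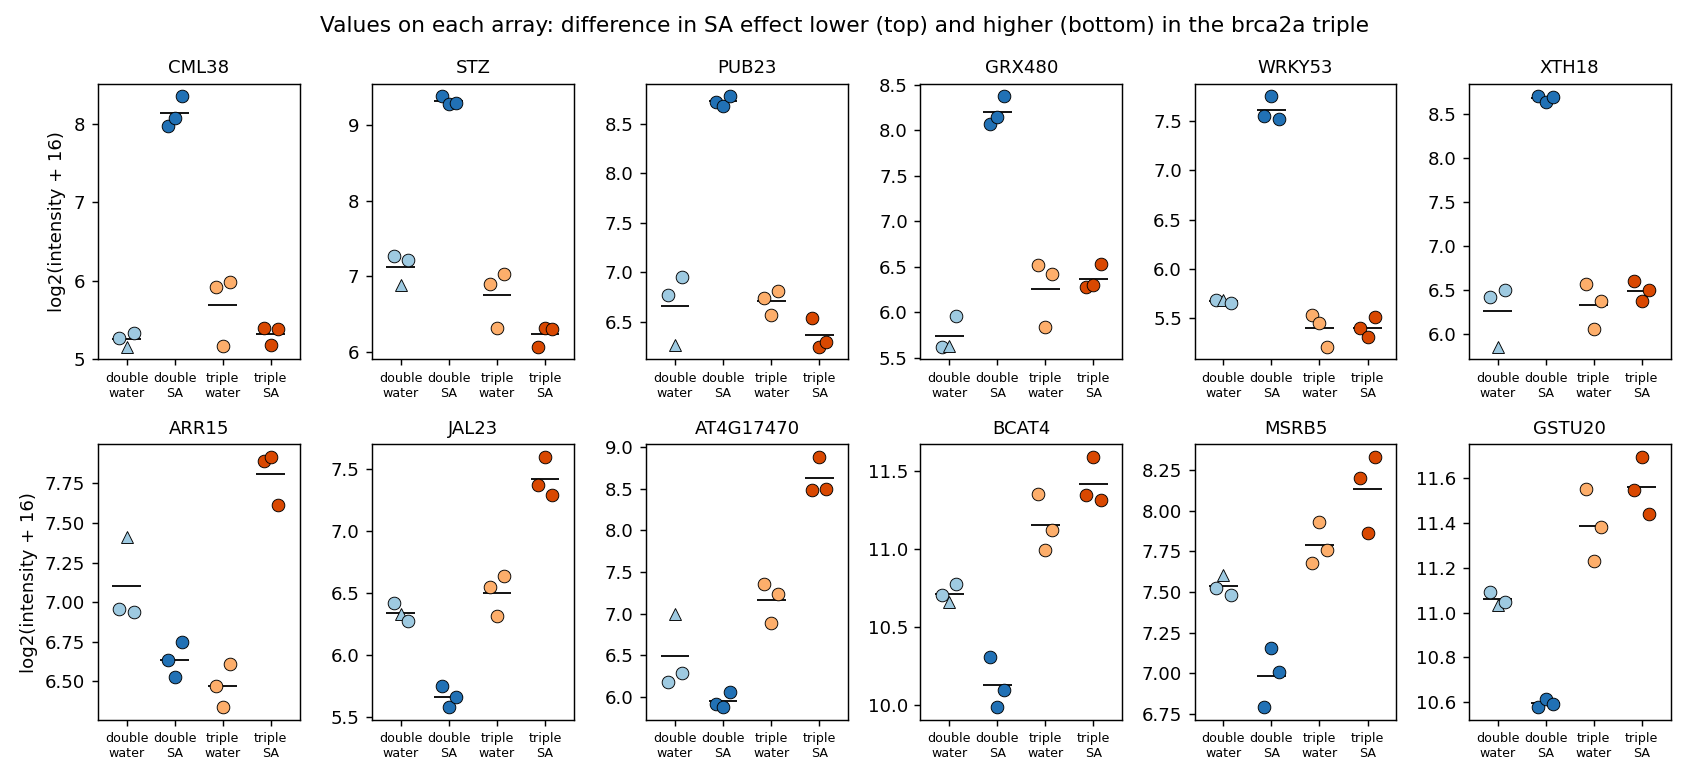
Values of 12 genes on each of the 12 arrays, as log2(intensity + 16), in the 4 groups; points are arrays, black lines are means of 3, triangles mark water replicate 2 of the double, and each panel has its own axis. In the top row (CML38, STZ, PUB23, GRX480, WRKY53, XTH18) the SA arrays of the double stand above all others, and in the bottom row (ARR15, JAL23, AT4G17470, BCAT4, MSRB5, GSTU20) they stand below the SA arrays of the brca2a triple.

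CHI, named for a chitinase (AT2G43570), differed in shape from these. Its readings were 5.83, 6.50 and 5.77 in water and 6.94, 7.20 and 7.11 after SA in the double, and 6.94, 6.32 and 6.85 in water and 5.87, 6.25 and 5.98 after SA in the triple. The triple's water arrays overlapped both groups of the double, water replicate 2 of the double was the highest of its group, and the difference was -1.72 ± 0.30 (limma adjusted p = 0.013). ATERDJ3B, a co-chaperone in the lumen of the endoplasmic reticulum, read 8.48, 8.61 and 8.57 in water and 9.50, 9.44 and 9.51 after SA in the double, and 8.64, 8.46 and 8.68 in water and 8.97, 8.86 and 8.89 after SA in the triple. SA raised it in both genotypes, by 0.93 in the double and 0.32 in the triple, and the difference was -0.61 ± 0.09 (limma adjusted p = 0.004). BZIP60 and OPCL1 were chosen after their values were seen. The first, a transcription factor of the unfolded protein response, read 8.70, 8.37 and 8.43 in water and 9.23, 9.43 and 9.31 after SA in the double, and 8.88, 8.57 and 8.60 in water and 8.41, 8.35 and 8.36 after SA in the triple, with a difference of -1.13 (limma adjusted p = 0.0017). The other, a CoA ligase of jasmonate synthesis, read 7.31, 7.08 and 7.16 in water and 8.67, 8.29 and 8.46 after SA in the double, and 7.76, 7.34 and 7.21 in water and 7.66, 7.38 and 7.55 after SA in the triple, with a difference of -1.20 (limma adjusted p = 0.011). In both genes the double's SA arrays were the highest of the 12.

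The others of the 20 lowest named genes carry only a locus tag in the annotation used, and no role is given for them. The lowest difference of any named gene was that of AT4G29780, which read 6.73, 5.78 and 6.87 in water and 9.28, 9.18 and 9.38 after SA in the double. The triple gave 6.68, 6.14 and 6.61 in water and 5.87, 5.89 and 6.0 after SA, and the difference was -3.38 ± 0.34 (limma adjusted p = 0.00051). AT5G52760 rose furthest of the 20 lowest named genes, 10.6-fold with SA in the double, from 6.21, 5.92 and 5.82 to 9.23, 9.56 and 9.36. The triple's arrays read 6.35, 5.79 and 5.93 in water and 6.28, 6.03 and 6.34 after SA, groups that overlapped, and the difference was -3.20 ± 0.22 (limma adjusted p = 4e-05). AT3G01830 had the lowest adjusted p of these genes, 7.6e-06 by limma. It read 4.64, 4.58 and 4.59 in water and 7.29, 7.15 and 7.46 after SA in the double, and 5.01, 4.67 and 5.0 in water and 4.73, 4.70 and 4.66 after SA in the triple, a difference of -2.89 ± 0.14.

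The spread between arrays was not alike for all of them. AT2G27080 read 8.25, 6.63 and 8.54 in water and 9.62, 9.86 and 9.55 after SA in the double, and 8.22, 8.30 and 8.01 in water and 7.48, 7.52 and 7.30 after SA in the triple. Its water replicate 2 of the double was far below the other 2, and the difference of -2.61 ± 0.54 (limma adjusted p = 0.037) became -2.02 ± 0.16 without that array (limma adjusted p = 7e-05). Leaving out any SA array of the double or any array of the triple instead ended the call, with limma adjusted p from 0.074 to 0.1. AT3G02840 read 4.84, 4.87 and 4.90 in water and 7.35, 6.01 and 7.04 after SA in the double, and 5.05, 4.78 and 5.05 in water and 4.96, 4.82 and 4.83 after SA in the triple. Its SA replicate 2 of the double lay below the other 2, but above all water arrays, and the difference was -2.02 ± 0.37 (limma adjusted p = 0.018). Its call was lost without SA replicate 3 of the double, or without water replicate 1 or 3 or SA replicate 2 or 3 of the triple, with limma adjusted p from 0.051 to 0.058.

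In the remaining 8 of these 20 genes, the SA arrays of the double stood above the other 9 arrays. Their differences were -2.60 for AT4G27654, -2.40 for AT1G15010, -2.30 for AT5G55450 and -2.14 for AT1G18740. For AT3G04640 the difference was -2.13, for AT1G74450 -2.11, for AT5G35735 -2.02 and for AT5G39670 -1.92. Of the 8, AT5G55450 alone had an SA effect above 0.8 in the triple, 0.85. With all arrays this effect was not called (limma adjusted p = 0.061). The gene was called as raised in the triple without water replicate 2 of the double (limma adjusted p = 0.00047). Its readings were 6.96, 7.77 and 6.67 in water and 10.23, 10.37 and 10.28 after SA in the double, and 7.21, 6.83 and 7.14 in water and 8.03, 7.79 and 7.92 after SA in the triple.

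The genes with a higher SA effect in the brca2a triple were led by AT4G17470 and ARR15. AT4G17470, which has no role in the annotation used, read 6.18, 6.99 and 6.29 in water and 5.92, 5.87 and 6.06 after SA in the double. In the triple it read 7.36, 6.88 and 7.23 in water and 8.49, 8.88 and 8.50 after SA, so the triple's SA arrays were the highest of the 12, and the difference was 2.0 ± 0.29 (limma adjusted p = 0.0044). ARR15, a response regulator that dampens cytokinin signalling, read 6.95, 7.41 and 6.94 in water and 6.63, 6.53 and 6.75 after SA in the double. The triple's water arrays, at 6.47, 6.34 and 6.61, overlapped the double's SA arrays, and its SA arrays, at 7.89, 7.92 and 7.62, were the highest of the 12, with a difference of 1.80 ± 0.19 (limma adjusted p = 0.00057). Its water replicate 2 of the double was the highest of that group, and the difference was 1.64 without it.

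JAL23, a jacalin-type lectin that binds carbohydrates, was called in both genotypes and in opposite directions. It read 6.42, 6.33 and 6.27 in water and 5.74, 5.58 and 5.66 after SA in the double, where SA lowered it by 0.68 (an effect of -0.68, limma adjusted p = 0.0014). In the triple it read 6.55, 6.32 and 6.63 in water and 7.37, 7.60 and 7.29 after SA, a rise of 0.92 (limma adjusted p = 0.0021). The difference was 1.60 ± 0.14 (limma adjusted p = 0.00016), and the 4 groups overlapped only between the water arrays.

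BCAT4 carries out the first step of the pathway that turns methionine into glucosinolates, sulphur-rich defence compounds. It read 10.71, 10.66 and 10.77 in water and 10.31, 9.98 and 10.10 after SA in the double, and 11.35, 10.99 and 11.12 in water and 11.35, 11.59 and 11.31 after SA in the triple. The triple was above the double in both treatments. SA lowered BCAT4 in the double (an effect of -0.58, limma adjusted p = 0.0083) and had an effect of 0.26 in the triple that was not called (limma adjusted p = 0.2). The difference was 0.84 ± 0.15 (limma adjusted p = 0.018), and it was not called without SA replicate 2 or 3 of the double or water replicate 3 of the triple (limma adjusted p = 0.051, 0.057 and 0.056). MSRB5, an enzyme that repairs oxidised methionine in proteins, read 7.53, 7.60 and 7.48 in water and 6.79, 7.16 and 7.01 after SA in the double, and 7.68, 7.93 and 7.76 in water and 8.20, 7.86 and 8.33 after SA in the triple. Its difference was 0.90 ± 0.18 (limma adjusted p = 0.027), and the SA arrays of the 2 genotypes did not overlap. Leaving out any of 7 single arrays ended the call of MSRB5, with limma adjusted p from 0.056 to 0.078. GSTU20, a glutathione transferase of the plant-specific tau class, read 11.09, 11.03 and 11.05 in water and 10.58, 10.62 and 10.59 after SA in the double. The triple gave 11.55, 11.23 and 11.38 in water and 11.55, 11.70 and 11.44 after SA, and the difference was 0.64 ± 0.11 (limma adjusted p = 0.016). It was not called without SA replicate 1 of the double (limma adjusted p = 0.05). PIFI, a chloroplast protein of the electron transport that goes on in the dark, read 9.868, 9.998 and 9.898 in water and 9.63, 9.58 and 9.72 after SA in the double, and 9.80, 9.68 and 9.75 in water and 9.92, 9.91 and 9.84 after SA in the triple, a difference of 0.43 (limma adjusted p = 0.013). The call of PIFI was lost with a pseudocount of 1 (limma adjusted p = 0.06), with the series value table (0.072) and with trend and robust moderation (0.051).

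Among the higher genes known by locus tag, AT2G43530 stood apart in the SA arrays of the triple alone. It read 9.01, 8.77 and 8.80 in water and 8.75, 8.89 and 8.74 after SA in the double, and 9.01, 9.07 and 8.73 in water and 10.04, 9.68 and 10.03 after SA in the triple, a difference of 1.05 ± 0.16 (limma adjusted p = 0.0075). AT2G43550 was already higher in the triple in water. Its readings were 8.57, 8.19 and 8.51 in water and 7.57, 7.85 and 7.82 after SA in the double, and 9.36, 9.06 and 9.16 in water and 9.69, 9.32 and 9.58 after SA in the triple, a difference of 1.01 ± 0.18 (limma adjusted p = 0.017, and 0.053 without water or SA replicate 3 of the triple). AT1G49470 had the largest fall with SA in the double among the 15 (-0.95), from 7.95, 8.23 and 8.29 to 7.33, 7.0 and 7.30, while the triple read 7.90, 7.79 and 7.90 in water and 7.73, 7.79 and 7.90 after SA.

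The other 7 of the 15 lay between 0.68 (AT2G23840) and 1.07 (AT1G30250). They were AT5G44050 at 0.96, AT5G47330 at 0.92, AT5G39080 at 0.79, AT1G21440 at 0.76 and AT5G08540 at 0.69, besides these 2. AT1G21440 was the least secure of them, since leaving out any single array other than water replicate 2 of the double ended its call, with limma adjusted p up to 0.1. AT5G44050 lost its call without any of 7 arrays (limma adjusted p up to 0.079) and AT1G30250 without any of 3 arrays of the triple (up to 0.056). AT5G47330 read 7.06, 7.40 and 6.91 in water and 6.42, 6.14 and 6.26 after SA in the double, and in the triple all 6 arrays lay between 6.82 and 7.04. UBC19 and TBL25 were chosen after their values were seen. UBC19, a ubiquitin-conjugating enzyme of the cell cycle, read 8.72 to 9.06 in the other 9 arrays and 9.21, 9.33 and 9.21 after SA in the triple, a difference of 0.48 (limma adjusted p = 0.031). TBL25, of a family that acetylates cell wall polymers, read 9.51, 9.40 and 9.52 in water and 9.03, 9.02 and 9.03 after SA in the double, and 9.02, 9.39 and 9.24 in water and 9.40, 9.39 and 9.36 after SA in the triple, a difference of 0.62 (limma adjusted p = 0.016).

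The 2 SA effects behind each difference share no array with each other, and both are parts of the difference, so they are given as its description. In the double, SA raised 1123 probe sets (4.94%) and lowered 577 (2.54%). In the brca2a triple it raised 593 (2.61%) and lowered 464 (2.04%). Of the 351 probe sets with a lower SA effect in the triple, SA raised 333 in the double and lowered none, and the median SA effect in the double was 1.08. In the triple SA raised 45 of them and lowered 23, and the median was -0.03. With all arrays, the pattern met most often, in 281, was a rise in the double and no call in the triple.

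The 91 probe sets with a higher SA effect were a mirror of smaller size. In the double, SA lowered 57 of them and raised none, with a median effect of -0.35. In the triple, SA raised 41 and lowered 1, with a median of 0.25. A fall in the double with no call in the triple was met in 45, a rise in the triple with no call in the double in 30, and both calls in 11.

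Most of the difference was seen after SA rather than in water. The lower group had a median difference between genotypes of 0.06 in water and -0.96 after SA. In 334 of the 351, the genotypes were further apart after SA than in water, and this held for 69 of the 91 in the higher group. After SA, all 3 arrays of the triple lay below all 3 of the double in 345 of the 351, against 10.8% of all probe sets. They lay above in 86 of the 91 of the higher group, against 15.1% of all. The same arrays enter the difference, so these counts describe its shape and add no independent support.

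**Figure D2:**
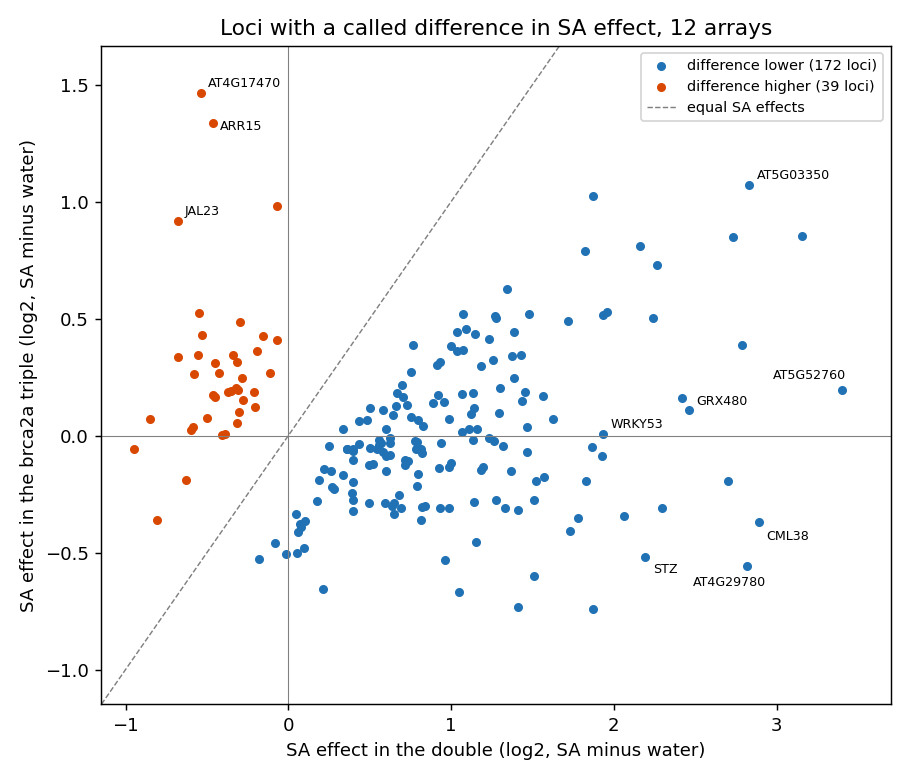
SA effect in the double (x axis, log2) against SA effect in the brca2a triple (y axis, log2) for the 211 one-gene loci with a called difference, 172 lower in blue and 39 higher in orange; the dashed line marks equal effects. The lower loci extend to the right along a height near 0, and the higher loci gather left of 0 with mostly positive values in the triple.

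Some genes kept part of their SA response in the triple. Of the one-gene loci, 20 were called as raised by SA in both genotypes with 12 arrays, but less in the triple. AT5G03350 read 9.31, 9.16 and 9.51 in water and 12.17, 12.24 and 12.07 after SA in the double, and 9.93, 9.89 and 10.06 in water and 11.09, 10.93 and 11.08 after SA in the triple. Its SA effect was 2.83 in the double and 1.07 in the triple, and no group overlapped another. AT5G52750 read 6.72, 6.79 and 6.34 in water and 9.40, 9.30 and 9.35 after SA in the double, and 6.79, 6.32 and 6.85 in water and 7.73, 7.33 and 7.45 after SA in the triple, with SA effects of 2.74 and 0.85. AT3G22240, among the brightest of the called genes, read 10.94, 11.59 and 11.09 in water and 13.11, 13.20 and 13.18 after SA in the double, and 11.80, 11.76 and 11.77 in water and 12.32, 12.26 and 12.33 after SA in the triple. All 3 of these genes were chosen for the size of their difference.

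With all arrays in the fit, a few of the lower genes were called as falling with SA in the triple. AT1G11960 was raised in the double, from 6.14, 6.10 and 6.21 to 7.11, 7.08 and 7.07, and lowered in the triple, from 6.50, 6.26 and 6.43 to 6.19, 6.0 and 6.08. With all arrays it was 1 of 2 such one-gene loci, and its difference was -1.24 ± 0.10 (limma adjusted p = 8.5e-05). Also with all arrays, the fall in the triple was called in 11 loci and the effect in the double was not. AT1G72940 was the largest of these, at 7.73, 7.27 and 7.61 in water and 7.70, 7.70 and 7.84 after SA in the double, and 7.17, 7.21 and 7.33 in water and 6.61, 6.63 and 6.49 after SA in the triple. RRP41L, related to a subunit of the RNA-degrading exosome, read 6.28, 6.36 and 6.27 in water and 6.34, 6.43 and 6.32 after SA in the double, and 6.67, 6.73 and 6.63 in water and 6.31, 6.15 and 6.35 after SA in the triple. For RRP41L the triple's water arrays stood above the other 9, and the difference was -0.47 (limma adjusted p = 0.015). Without water replicate 2 of the double, falls in the triple were called in more genes that SA raised in the double. Among the lowest named genes these were AT1G18740 (an effect of -0.73, limma adjusted p = 4.2e-05), AT1G74450 (-0.60, 0.00014) and AT2G27080 (-0.74, 0.0012). AT4G29780 (-0.56, 0.011), PUB23 (-0.34, 0.024) and STZ (-0.52, 0.041) were the others.

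Leaving out water replicate 2 of the double changed the number of calls more than the size of the differences. With 11 arrays, 1065 probe sets were called (4.68%), 652 lower (2.87%) and 413 higher (1.82%). All 351 lower and all 91 higher probe sets of the 12 arrays were called again in the same direction. A further 301 were lower and 322 higher. The median difference of the 351 was -1.02 with the array and -0.99 without it, and that of the 91 was 0.62 and 0.59. The left-out array was the highest of its group in 127 and the lowest in 168 of the 351, and the highest in 43 and the lowest in 35 of the 91. Over all 22746 probe sets it was the highest of the 3 in 8725 and the lowest in 8941.

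Genes called only without that array were mostly small in difference, with a median of -0.59 for the lower and 0.48 for the higher. Examples chosen after their values were seen show where the array lay. AT1G32920, the furthest down of the newly called loci, read 9.91, 8.88 and 9.71 in water and 10.64, 10.58 and 10.57 after SA in the double, and 9.97, 9.12 and 9.63 in water and 9.16, 8.56 and 9.11 after SA in the triple. Its difference was -1.73 (limma adjusted p = 0.057) with the array and -1.42 (limma adjusted p = 0.023) without it. AT1G52000, the furthest up, read 8.38, 7.58 and 8.25 in water and 7.63, 7.58 and 7.35 after SA in the double, and 8.25, 8.30 and 8.29 in water and 9.30, 8.52 and 8.96 after SA in the triple. Its difference was 1.19 (limma adjusted p = 0.094) with the array and 1.44 (limma adjusted p = 0.0054) without it. JMT, which methylates jasmonic acid, read 6.13, 4.88 and 6.16 in water and 5.19, 5.15 and 5.25 after SA in the double, and 6.09, 5.80 and 6.17 in water and 6.11, 5.93 and 6.15 after SA in the triple. Water replicate 2 lay below the SA arrays of its genotype, and the difference was 0.57 (limma adjusted p = 0.62) with it and 0.99 (limma adjusted p = 0.0017) without it. TBL26 read 8.08, 5.63 and 8.02 in water and 6.08, 6.18 and 6.24 after SA in the double, and 8.28, 8.30 and 8.37 in water and 7.76, 7.08 and 7.75 after SA in the triple, with a difference of 0.29 (limma adjusted p = 0.93) that became 1.09 (limma adjusted p = 0.018). In TBL26 too the left-out array was the lowest of the 12.

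**Figure D3:**
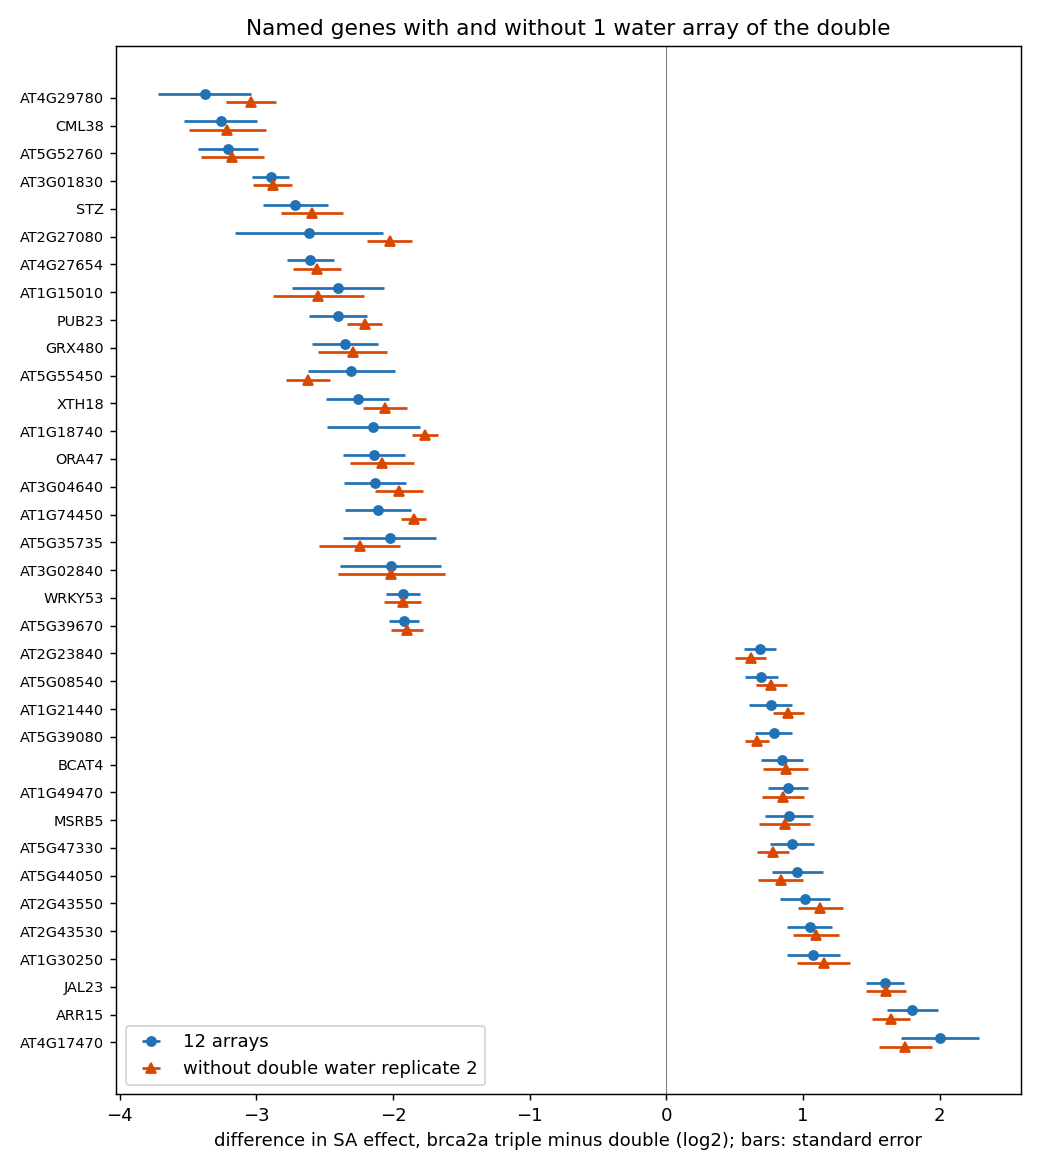
Difference in SA effect (log2, brca2a triple minus double, with standard errors) of the 35 named genes, with 12 arrays (circles) and without water replicate 2 of the double (triangles). No gene changes sign; AT2G27080 moves most among the lower genes, from -2.61 to -2.02, and its error bar shortens.

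Gene classes were either lists of loci or families found by name among symbols and synonyms. A locus outside the lists could be placed only by such a name. Most classes were measured only in part, since a locus also needed a one-gene probe set. Of 51 classes, 30 had at least 3 measured loci. Over all 13333 measured loci, 172 (1.29%) were lower and 39 (0.293%) higher with 12 arrays, and 2.5% and 1.51% with 11, and the median difference was -0.01. In 18 of the 30 classes no locus was called with 12 arrays, and in 11 of these none was called with 11 either. Counts in small classes rest on 1 to 3 genes.

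In the defence classes described next, calls were in the lower direction except for JAL23. Of 14 listed pathogenesis-related (PR) and SA output genes, 3 were measured (GRX480, WRKY53 and RING1), none of them a PR gene. All 3 were lower, with a median of -1.92. WRKY53 is counted again among the WRKY factors, and RING1 among the ubiquitin ligases. Of 7 measured WRKY factors, from 72 in the class, 2 were lower and none higher, and the class median was -0.03. The other 5 lay between -0.26 for WRKY6 and 0.27 for ZAP1. Among calcium sensors 2 of 9 measured loci were lower, from 82 in the class. Among ubiquitin ligases 3 of 15 were lower, from 92 in the class. The medians were -0.12 and -0.20. These counts cover only loci placed in a class by list or name. Genes known here by locus tag, such as AT3G01830 and AT5G39670, were not among them. CML41 and PUB19 show members of a large difference that was not called. CML41 read 6.76, 6.73 and 6.78 in water and 7.26, 7.31 and 7.15 after SA in the double, and 7.71, 7.65 and 7.77 in water and 7.20, 5.86 and 7.12 after SA in the triple, and SA replicate 2 of the triple stood apart. PUB19 read 6.14, 5.24 and 6.03 in water and 6.85, 6.92 and 6.83 after SA in the double, and 6.71, 5.97 and 6.40 in water and 5.17, 6.55 and 5.57 after SA in the triple, where the 2 treatments overlapped.

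Chitinases and glucanases had 1 of 4 loci lower (CHI), and the other 3 lay between -0.04 and 0.16. Of the jacalin lectins placed in the class by list or name, 8 in all, 4 were measured. JAL23 was higher, and the others lay between -0.17 and 0.28. AT1G52000, called higher only without replicate 2 and known here by locus tag, was not among them. SAG101, a partner of EDS1 in immune signalling and the only measured gene of the SA synthesis list, had a difference of -0.35 (limma adjusted p = 0.095), which was called without replicate 2 (limma adjusted p = 0.012). None of 15 measured defensin-like proteins and protease inhibitors, from 101 in the class, was called with either set of arrays. Their median was 0.01. This count covers only those loci. AT2G43530 and AT2G43550, called higher and known here by locus tag, were not among them.

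Hormone classes other than SA held few called loci. Of 6 cytokinin genes, ARR15 was higher and the other 5 were not called, with RR16 at 0.62 (limma adjusted p = 0.078). No jasmonate gene of the 6 measured, from 44 in the class, was called with 12 arrays, and JMT alone without replicate 2. The class median was 0.38, the highest of the 30 classes in the figure, and 1 of the 6 differences was below 0. OPCL1 (-1.20) and ORA47 (-2.14), described above for their part in jasmonate synthesis, were called lower but were not placed in this class. PDF1.2, a defensin gene used as a jasmonate marker, had a difference of 0.05 (limma adjusted p = 0.88). No auxin gene of 15 was called with 12 arrays, while without replicate 2 WES1, an enzyme that conjugates auxin to amino acids, was lower at -0.55 (limma adjusted p = 0.01).

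LTI30, a dehydrin of cold and drought, shows a large difference set by single arrays. It read 5.20, 5.40 and 5.26 in water and 7.90, 7.92 and 7.84 after SA in the double, and 8.65, 5.14 and 8.47 in water and 5.55, 9.83 and 5.46 after SA in the triple. In the triple, replicate 2 was far below the other water arrays and far above the other SA arrays. The difference of -3.07 was not called (limma adjusted p = 0.49), and none of the 8 cold and abscisic acid genes was.

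Glutathione transferases had 1 of 13 higher (GSTU20) and none lower, and GSTU16 was higher as well without replicate 2, at 0.51. Of 52 UDP-glycosyltransferases none was called with 12 arrays, and 4 were higher without replicate 2 (GT72B1, UGT78D1, UGT71C4 and UGT76C1). GT72B1 turned sign between the 2 fits, from -0.20 to 0.37. Photosynthesis genes had 1 of 11 higher (PIFI, whose call was lost under 3 of the alternatives), and all 11 differences were above 0, with a median of 0.14. Of 36 cell wall genes 2 were lower (XTH18 and XTH19), with a class median of -0.08.

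No gene of recombination, repair and cell cycle was called among 8 measured, with either set of arrays. The class holds 123 loci, so most of it was not seen. Their differences lay between -0.29 and 0.27. No call was made among 19 histone and chromatin genes, 11 tubulin and actin genes, 10 genes of vesicle fusion, 9 peroxidases and 11 autophagy genes either with 12 arrays. Of 9 genes of folding and secretion in the endoplasmic reticulum, ATERDJ3B was the only one called, and the class median was -0.04.

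**Figure D4:**
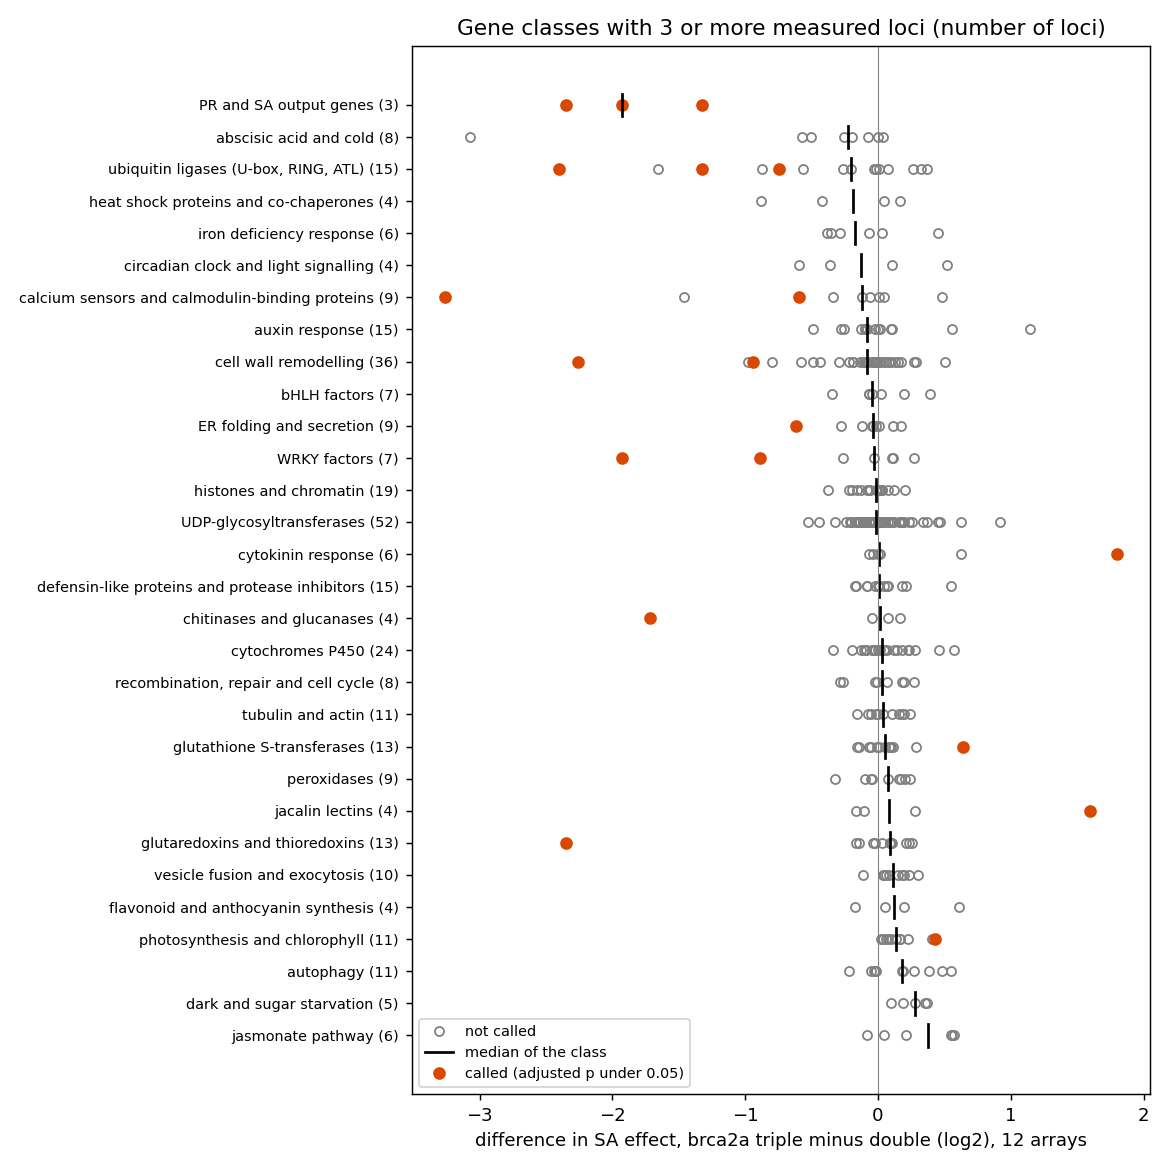
Difference in SA effect (log2, 12 arrays) of each measured locus in the 30 gene classes with at least 3 loci; filled points are called, open points are not, and black bars are class medians. No class holds more than 3 called loci, and apart from the SA output genes, all of which are called, the class medians lie between -0.23 and 0.38.

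Called loci lay on all 5 chromosomes, at 0.929% to 1.6% of the measured loci for the lower and 0.155% to 0.367% for the higher direction. Of 5228 pairs of measured loci that are adjacent in RefSeq's gene order, 9 had both loci called, and all 9 were lower in both. They include XTH18 with XTH19, AT4G27652 with AT4G27654, and the run AT5G52740, AT5G52750 and AT5G52760. AT5G52740 read 4.88, 5.08 and 4.87 in water and 5.75, 5.85 and 6.18 after SA in the double, and 5.06, 4.92 and 5.03 in water and 5.06, 5.04 and 5.13 after SA in the triple, a difference of -0.92 against -1.88 and -3.20 for its neighbours. Loci of opposite direction also lay close to each other. CHI (lower) is separated by 1 gene from AT2G43550 (higher), and ORA47 (lower) by 4 genes from ARR15 (higher). These examples were chosen after their values were seen. Probe sets of neighbouring gene copies can share sequence, which was not tested.

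Of the 211 called loci, 209 are protein-coding and 2 are transcribed pseudogenes in RefSeq. AT3G48650, 1 of the 2, read 5.19, 5.83 and 5.27 in water and 7.65, 7.58 and 7.78 after SA in the double, and 5.37, 5.34 and 5.63 in water and 6.07, 5.81 and 5.96 after SA in the triple. Its difference was -1.74 ± 0.21 (limma adjusted p = 0.0016), and the SA arrays of the double stood above the rest. The other, AT2G24160, had a difference of -0.85 (limma adjusted p = 0.0058).

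At the threshold, the genes just inside were AT1G19210 at -0.30 (limma adjusted p = 0.049), AT1G56060 at -0.84, AT4G30150 at -0.38, AT2G41640 at -1.60 and AT5G67390 at 0.40. Those just outside were SGT1A at -0.71 (limma adjusted p = 0.05013), AT4G00700 at -0.93, AT1G61260 at -0.42, AT5G27290 at 0.41 and WES1 at -0.49. All 10 were called without replicate 2 of the double in water.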

How the data were processed

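Total RNA of 12 samples was hybridised to Affymetrix ATH1 arrays, 1 sample per array. The authors deposited linear intensity values per probe set, made with PLIER per the submitters' processing notes, with version and settings not given in the sources used here. Array medians lay between 58.2 and 61.9, so the deposited intensities were taken as normalized between arrays. In the value table that the authors deposited for the series, each log2 value was found to be that array's log2 intensity after subtraction of the probe set's 12-array median (largest departure 1.98e-06), with array medians from -0.02 to 0.03. It served as an alternative, and its 5 columns of the ssn2 triple were not used. No 2 arrays held the same values. Arrays have no read depth, and their number limits the precision.

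Values were transformed to log2(intensity + 16), a scale that compresses changes near background, with no filter on dim probe sets. The 64 control probe sets were left out and 22746 tested. Group means were fitted with limma 3.58.1 (lmFit and eBayes, default settings, R 4.3.3). P-values are two-sided and Benjamini-Hochberg adjusted over all 22746, with a threshold of 0.05. The fit was run on 12 arrays and without water replicate 2 of the double. It was tested on simulated data with known differences before use. The p-values measure the spread between replicates that the labels call independent.

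The platform table pairs 13513 probe sets with 1 gene and 503 with several, and 8730 are not listed in it. Of the 13513, 13484 matched RefSeq genes (assembly TAIR10.1), used for names and gene order, giving 13333 loci. Named are the 20 lowest and 15 highest one-gene differences called in both fits, and called members of the classes described, which count the brightest probe set of each locus. Roles are textbook background. Members and lists were chosen with earlier results of these data known, and some class definitions were narrowed, to remove false matches of names, after differences had been seen. Alternatives were other pseudocounts, a filter on dim probe sets, 2 further normalizations, the value table, other moderation, array weights, a replicate block and leaving out each array.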

Additional observations from a re-analysis of the deposited data

Results flagged for a closer look

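The results below are those in which the response to SA differed between the genotypes by the test of that difference itself (limma adjusted p below 0.05). They number 442 probe sets with 12 arrays and 1065 without water replicate 2 of the double. Groups of 3 were too small for a test of single samples.

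In the lower direction the differences in SA effect were -3.38 for AT4G29780, -3.26 for CML38, -3.20 for AT5G52760, -2.89 for AT3G01830, -2.71 for STZ, -2.61 for AT2G27080 and -2.60 for AT4G27654. They were -2.40 for AT1G15010, -2.40 for PUB23, -2.35 for GRX480, -2.30 for AT5G55450, -2.26 for XTH18, -2.14 for AT1G18740, -2.14 for ORA47 and -2.13 for AT3G04640. For AT1G74450 the difference was -2.11, for AT5G35735 -2.02, for AT3G02840 -2.02, for WRKY53 -1.92 and for AT5G39670 -1.92. The called class members outside these 20 had differences of -1.72 for CHI, -1.33 for RING1, -0.94 for XTH19, -0.89 for WRKY22, -0.75 for PUB22, -0.61 for ATERDJ3B and -0.60 for CML37.

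In the higher direction the differences were 2.0 for AT4G17470, 1.80 for ARR15, 1.60 for JAL23, 1.07 for AT1G30250, 1.05 for AT2G43530, 1.01 for AT2G43550 and 0.96 for AT5G44050. They were 0.92 for AT5G47330, 0.90 for MSRB5, 0.89 for AT1G49470, 0.84 for BCAT4, 0.79 for AT5G39080, 0.76 for AT1G21440, 0.69 for AT5G08540 and 0.68 for AT2G23840. GSTU20 and PIFI, called class members, had differences of 0.64 and 0.43.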

How the results depend on the processing

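Of the 44 named genes and class members, none changed the sign of its difference under any alternative, and 34 of them kept their call under all alternatives with 12 arrays. Array weights raised the number of called probe sets with 12 arrays from 442 to 826 (573 lower and 253 higher), and the SA calls to 4523 in the double and 2625 in the brca2a triple. Under every other alternative that kept all arrays, each of these counts stayed within 1.5 times its value. Without 1 array, the calls ranged from 329 to 1065 in all, 265 to 652 lower and 61 to 413 higher, and the upper ends all came from leaving out water replicate 2 of the double. Starting without that array (1065 calls, 652 lower and 413 higher), leaving out 1 more gave 599 to 1080, 426 to 688 and 173 to 392. The lower ends came without water replicate 3, which left 1 water array in the double, assumed to vary like the other groups. SA calls ranged from 1090 to 4464 in the double and from 379 to 3495 in the triple, with the upper ends again without water replicate 2. The causes were not tested. Genes that lost their call with all 12 arrays under another setting were AT2G27080 (trend and robust moderation, limma adjusted p = 0.075, and the replicate block, 0.072), AT3G02840 (pseudocount 64, 0.070), MSRB5 and AT1G21440 (replicate block, 0.058 and 0.076) and PIFI (pseudocount 1, 0.060, value table, 0.072, and trend and robust moderation, 0.051). Single arrays ended 12-array calls of 9 genes, and those of AT1G30250, AT2G43550, AT5G44050, BCAT4 and GSTU20 by no other setting. With 11 arrays, 8 genes lost their call in some alternative, among them AT1G49470 without water replicate 3 of the double (limma adjusted p = 0.052) and AT2G23840 without water replicate 1 (0.052). The deviations of same-numbered arrays correlated at -0.327 to 0.157 (18 pairs of arrays). Their median was -0.014, against 0.002 for differently numbered arrays. A replicate block gave 438 calls with 12 arrays and 1011 with 11. These correlations cannot exclude an effect shared by same-numbered arrays in a smaller set of genes. In STZ, ORA47, PUB23 and XTH18, water replicate 2 was the lowest water array of both genotypes. The same held in AT4G29780, CML38, AT3G01830 and BZIP60. In GRX480 it was the lowest in the triple, and in the double it was level with replicate 1 (5.626 and 5.625). In WRKY53, AT5G52760, AT2G27080, AT5G55450 and AT3G02840 it was not the lowest in both genotypes. Such a shared effect was not tested gene by gene. Counts of called loci in the 30 classes kept to within 1.5 times in 603 of 630 values with 12 arrays and 539 of 600 with 11. Dim probe sets limit what could be seen, since changes near the low end of the scale are understated.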
